A study of Mus musculus with 8 samples.

Results

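The genes described here are 9 mouse genes of the pathway by which cells sense nutrients and stress through the kinase complex mTORC1: Rraga, Rragc, Rragd, Flcn, Fnip1, Fnip2, Sesn1, Sesn3 and Ddit4. All probe sets that the platform annotation assigns to these symbols were taken, which gave 19 of 45037 probe sets and 9 of 18193 genes with a probe set. Expression was measured on 8 Affymetrix arrays, 1 per sample, in mouse CD4+ T cells sorted by green fluorescence (EGFP). Every mouse carried an EGFP-tagged allele of Foxp3, the X-linked gene of the transcription factor that defines regulatory T cells, and the allele was either a mutant called delta or the wild type (WT). The groups were delta EGFP+ (3 arrays), WT EGFP+ (3 arrays), delta EGFP- (1 array) and WT EGFP- (1 array). The design text names hemizygous male mice as the source of the EGFP+ cells. It states neither age nor strain, nor what delta changes in the sequence. EGFP marks cells in which the tagged Foxp3 locus is active, so the EGFP- arrays hold the remaining CD4+ cells of each genotype. The study set out to compare cells expressing a nonfunctional Foxp3 with regulatory T cells that express the intact protein.

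mTORC1 drives growth when amino acids are plentiful and is recruited to the lysosome by Rag GTPases, which work as pairs of RagA or RagB with RagC or RagD. Folliculin (Flcn) with a partner protein, Fnip1 or Fnip2, switches RagC and RagD on by stimulating their GTP hydrolysis. Sestrins restrain the pathway by holding GATOR2, the activator upstream of the Rags, and Ddit4 restrains it through the TSC complex under hypoxia, DNA damage or glucocorticoids. In T cells mTORC1 supports activation and division, and Rag-dependent mTORC1 signalling is known to be needed for the function of activated regulatory T cells.

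The targeted gene was read first. Foxp3 stood at 11.10, 11.51 and 11.21 (log2 intensity) on the delta EGFP+ arrays, at 4.75, 4.86 and 4.64 on the WT EGFP+ arrays, at 6.14 on the delta EGFP- array and at 4.52 on the WT EGFP- array. The low reading on the arrays labelled WT EGFP+ goes against their label, and the sources used here do not place the probe set relative to the altered parts of either allele. Groups are therefore called as their arrays are labelled (delta-labelled, WT-labelled), and every direction between alleles rests on those labels. The CD4 T cell markers Cd4, Cd3d, Cd3e and Cd3g (4 measured of 6 listed) lay between 11.07 and 12.85 on every array. Array medians lay between 53.3 and 54.7 on the linear scale, and log2 values correlated across probe sets at 0.988 to 0.991 among the delta-labelled and 0.98 to 0.992 among the WT-labelled EGFP+ arrays. All of 16 measured cell cycle genes were higher on the 3 delta-labelled than on the 3 WT-labelled EGFP+ arrays, with a summed intensity of 35549 to 39978 against 9867 to 16092, and 25275 on the delta EGFP- against 9762 on the WT EGFP- array. Myeloid markers summed to 217 to 371 on the delta-labelled and 285 to 1203 on the WT-labelled EGFP+ arrays, 1 of 5 being lower on all delta-labelled arrays, and the high sum was that of WT EGFP+ replicate 3, with Csf1r at 9.85. CD8 T cell markers summed to 156 to 628 on delta and 138 to 218 on WT EGFP+ arrays, and B cell markers to 189 to 254 on delta and 207 to 324 on WT EGFP+ arrays. NK cell markers summed to 78 to 86 on delta and 73 to 78 on WT EGFP+ arrays, and erythroid markers to 62 to 79 on delta and 58 to 70 on WT EGFP+ arrays. Of the B cell markers, Ms4a1 was lower on all delta than on all WT EGFP+ arrays (-0.90, SE 0.27, limma's adjusted p = 0.073). In EGFP- cells, CD8 markers summed to 559 on the delta and 282 on the WT array. Cd8a stood at 8.52 on delta and 6.28 on WT there, but Cd8b1 at 7.59 on delta and 7.67 on WT. NK cell markers summed to 122 on delta and 83 on WT in EGFP- cells. Of these, Ncr1 stood at 6.41 on delta and 5.37 on WT. Klre1 stood at 4.56 on delta and 4.89 on WT, and Klra8 at 3.76 on delta and 3.65 on WT. The part of these differences in the results below was not tested. In bulk RNA of this kind, fewer cells of a type and less RNA per cell cannot be told apart.

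The promoter windows of the genes were read from RefSeq (GRCm38.p6), from 250 bases before to 50 bases after a transcript start; all 9 genes had at least 1 window, 10 in all. They were searched on both strands for the CLEAR motif of TFEB and TFE3 and for its core CACGTG, which lies inside it, and also for the FoxO motif GTAAACA. The windows of Sesn1 and Rragd are shown because these genes differed most between the groups, and those of Rragc and Fnip1 because they hold the core motif. Letters in capitals mark a motif match, on either strand.
Sesn1 upstream start, chr10:41810324-41810623, plus strand: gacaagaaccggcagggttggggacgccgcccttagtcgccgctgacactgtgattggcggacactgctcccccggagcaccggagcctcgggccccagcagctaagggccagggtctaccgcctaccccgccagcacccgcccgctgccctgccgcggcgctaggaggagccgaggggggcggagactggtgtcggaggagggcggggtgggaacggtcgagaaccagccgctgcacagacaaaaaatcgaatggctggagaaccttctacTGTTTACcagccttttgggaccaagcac
Sesn1 downstream start, chr10:41887189-41887488, plus strand: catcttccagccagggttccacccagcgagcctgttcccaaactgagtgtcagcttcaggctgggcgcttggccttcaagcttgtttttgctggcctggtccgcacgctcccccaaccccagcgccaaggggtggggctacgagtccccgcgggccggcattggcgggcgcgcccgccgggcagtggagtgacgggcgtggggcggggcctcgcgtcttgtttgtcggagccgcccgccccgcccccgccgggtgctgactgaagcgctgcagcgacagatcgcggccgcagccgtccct
Rragd, chr4:32982748-32983047, plus strand: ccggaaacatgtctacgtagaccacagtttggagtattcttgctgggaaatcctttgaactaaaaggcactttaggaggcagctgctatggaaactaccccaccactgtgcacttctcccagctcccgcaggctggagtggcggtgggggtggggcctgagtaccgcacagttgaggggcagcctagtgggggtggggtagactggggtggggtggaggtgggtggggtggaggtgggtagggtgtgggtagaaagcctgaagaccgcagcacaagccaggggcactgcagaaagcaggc
Rragc, chr4:123917183-123917482, plus strand: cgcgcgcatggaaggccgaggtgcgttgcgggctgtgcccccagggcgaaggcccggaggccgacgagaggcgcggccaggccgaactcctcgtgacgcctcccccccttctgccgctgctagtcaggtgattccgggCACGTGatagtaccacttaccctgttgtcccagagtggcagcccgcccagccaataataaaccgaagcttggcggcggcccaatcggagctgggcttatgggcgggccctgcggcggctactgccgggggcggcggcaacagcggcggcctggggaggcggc
Fnip1, chr11:54437929-54438228, plus strand: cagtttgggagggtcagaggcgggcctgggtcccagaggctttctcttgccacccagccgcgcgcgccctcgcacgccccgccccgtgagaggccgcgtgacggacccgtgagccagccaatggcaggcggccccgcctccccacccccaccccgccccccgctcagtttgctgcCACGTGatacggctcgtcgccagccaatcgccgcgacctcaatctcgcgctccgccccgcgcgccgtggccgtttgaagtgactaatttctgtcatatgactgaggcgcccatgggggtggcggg
The upstream Sesn1 window held the FoxO motif on the minus strand, 23 to 29 bases into the transcript, and the downstream window held none of the 3 motifs. CACGTG lay 112 to 107 bases before the start of Rragc and 75 to 70 bases before that of Fnip1. None of the 10 windows held the full CLEAR motif. Among 32851 windows of all genes, 3.65% held the FoxO motif, 7.15% the core CACGTG and 0.326% the CLEAR motif. A match describes these letters only, and Rragc and Fnip1, which share the core, differed in their expression as described below.

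The members were proposed with the levels of all 4 groups already known, being chosen by their log2 levels over these groups, so their values are given as a description, with the standard error (SE) of limma's fit across all probe sets and without p-values. Levels are log2 of the deposited intensity, differences are between group means on that scale, and no probe set's level is set against another's. Each EGFP- value is 1 array with no replicate.

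**Figure D1:**
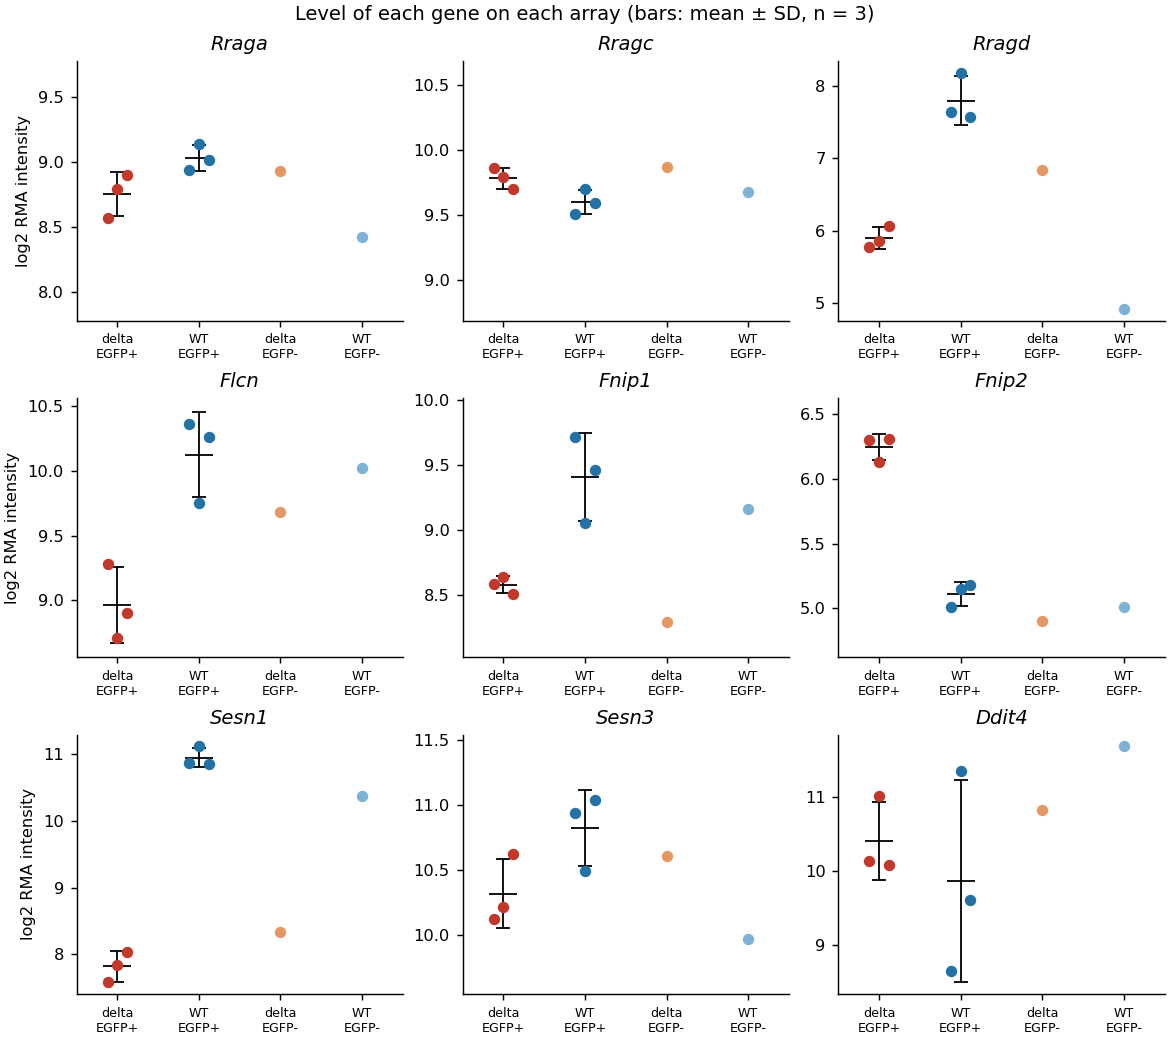
Level of each of the 9 genes (probe set with the highest mean; log2 RMA intensity) on every array, points by array, bars for mean and SD of the 3 EGFP+ arrays of a label. Sesn1 was low on the delta EGFP+ and delta EGFP- arrays, Rragd was highest on the WT EGFP+ arrays, Fnip2 was higher on the delta EGFP+ arrays alone, and Ddit4 spread widely among the WT EGFP+ arrays.

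Among the Rag GTPases, the 3 measured genes differed in how they varied. Rragd encodes RagD, the partner of RagA or RagB whose gene is a known target of TFEB. Its probe set with the highest mean (1434909_at) stood at 5.77, 5.86 and 6.06 on the delta EGFP+ arrays, at 7.64, 8.18 and 7.57 on the WT EGFP+ arrays, at 6.84 on the delta EGFP- array and at 4.92 on the WT EGFP- array. The WT EGFP+ arrays were the highest of all and did not overlap with any other group, the delta EGFP- array came next, and the WT EGFP- array was lowest. The difference of delta from WT EGFP+ arrays was -1.90 (SE 0.18), a level 3.73-fold lower. WT EGFP+ exceeded WT EGFP- arrays by 2.88 (SE 0.25), while delta EGFP+ arrays lay 0.95 (SE 0.25) below the delta EGFP- array. Thus the gene was higher in EGFP+ than in EGFP- cells of the WT label and lower in EGFP+ than in EGFP- cells of the delta label. The WT EGFP- value lay at the 32.9 percentile of its array, so differences from it may be understated by the normalization. The other probe sets of Rragd lay between the 9.77 and the 33.2 percentile of their arrays. There, 1431164_at differed between the EGFP+ groups by -0.38 (SE 0.15) and 1440555_at by -0.10 (SE 0.21), so the pattern of Rragd rests on 1 probe set.

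Rraga encodes RagA, and Rragc encodes RagC, the close relative of RagD. Rraga stood at 8.57, 8.79 and 8.90 on the delta EGFP+ arrays, 8.94, 9.14 and 9.02 on the WT EGFP+ arrays, 8.93 on the delta EGFP- array and 8.42 on the WT EGFP- array. The EGFP+ groups did not overlap but lay close, with a difference of -0.28 (SE 0.13), and the 8 arrays spanned 0.72. Rragc stood at 9.86, 9.79 and 9.70 on the delta EGFP+ arrays, 9.51, 9.70 and 9.59 on the WT EGFP+ arrays, 9.87 on the delta EGFP- array and 9.68 on the WT EGFP- array. Its 8 arrays spanned 0.36, the narrowest range of the representative probe sets of the 9 genes, and the EGFP+ groups met at 9.70, with a difference of 0.18 (SE 0.11). So among the Rag genes the wide range was that of Rragd, 3.26 over the 8 arrays.

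The folliculin complex genes differed in direction. Flcn, which encodes folliculin, was lower on the delta-labelled EGFP+ arrays at the probe set with the highest mean (1438167_x_at): 9.28, 8.71 and 8.90 on the delta EGFP+ arrays, 10.36, 9.75 and 10.26 on the WT EGFP+ arrays, 9.68 on the delta EGFP- array and 10.02 on the WT EGFP- array. The EGFP+ groups did not overlap, with a difference of -1.16 (SE 0.20) or 2.23-fold lower, and both EGFP- arrays lay above every delta EGFP+ array. Probe sets of the x_at type can bind related transcripts. The specific probe set 1423663_at ran the same way, at 7.98, 8.37 and 8.24 on the delta EGFP+ and 8.88, 8.73 and 9.22 on the WT EGFP+ arrays (difference -0.74, SE 0.16). The third Flcn probe set lay between the 10.4 and the 21.9 percentile and differed by -0.13 (SE 0.13).

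Fnip1 encodes the folliculin partner that is known to be needed for B cell development in mice. At 1449668_s_at it stood at 8.58, 8.64 and 8.51 on the delta EGFP+ arrays, 9.72, 9.05 and 9.46 on the WT EGFP+ arrays, 8.29 on the delta EGFP- array and 9.16 on the WT EGFP- array. Both delta groups were low, the EGFP+ groups did not overlap, and the difference was -0.83 (SE 0.17), 1.78-fold lower. The other probe sets differed by -1.04 (SE 0.32, 1419924_at) and -0.64 (SE 0.20, 1434405_at), also without overlap. The EGFP- arrays did not share this order at every probe set: delta minus WT was -0.87 at 1449668_s_at, against 0.08 and 0.42 at 1434405_at and 1419924_at. The WT EGFP+ arrays of Fnip1 spread with an SD of 0.34, larger than that of 89.6% of genes, whereas the SD of the delta EGFP+ arrays was 0.07.

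Fnip2, the paralogue of Fnip1, ran the other way. It stood at 6.30, 6.13 and 6.31 on the delta EGFP+ arrays, 5.01, 5.15 and 5.18 on the WT EGFP+ arrays, 4.90 on the delta EGFP- array and 5.01 on the WT EGFP- array. The delta EGFP+ arrays alone were higher, by 1.13 (SE 0.11) over the WT EGFP+ arrays and by 1.34 (SE 0.16) over the delta EGFP- array, and the other 5 arrays lay within 0.28 of each other. The 1 probe set of Fnip2 lay between the 32.8 and the 58.8 percentile, so no fold is given, and at such low intensities differences may be understated by the normalization.

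**Figure D2:**
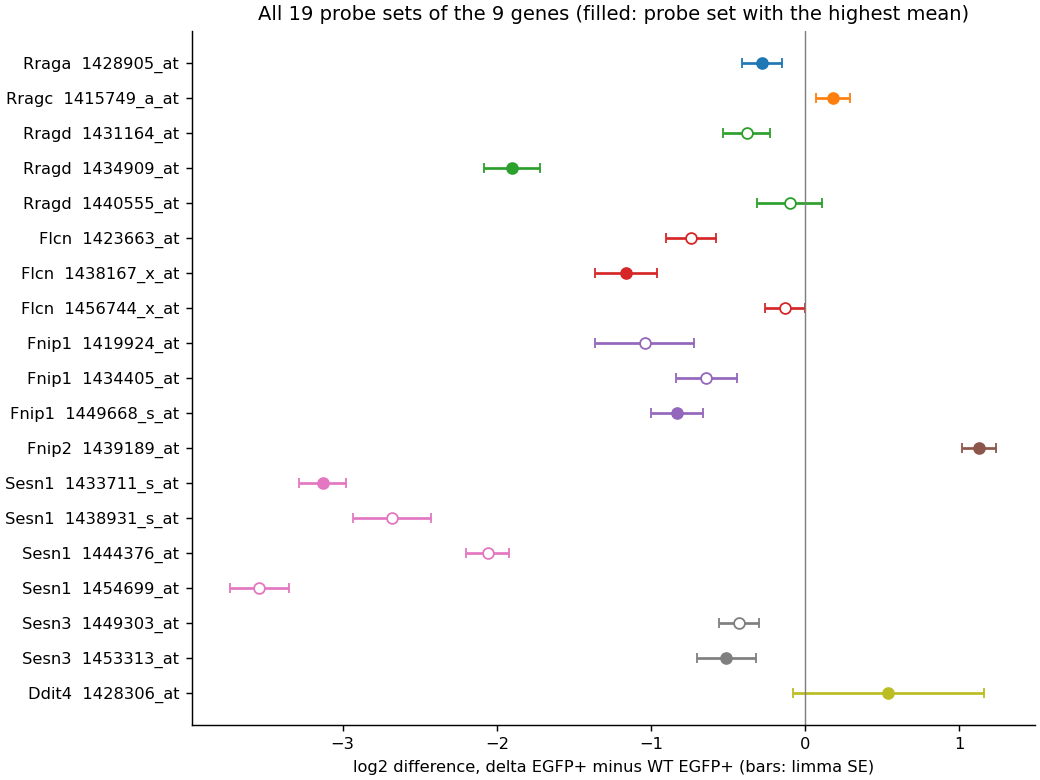
Difference of delta EGFP+ from WT EGFP+ arrays (log2, x axis) at each of the 19 probe sets, with limma SE bars, filled for the probe set with the highest mean of its gene. The 4 Sesn1 probe sets lie between -2.06 and -3.54, and Fnip2 stands at 1.13.

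Sesn1 showed the largest difference among the 9 genes. It encodes sestrin 1, a restraint on mTORC1 whose gene is known to be induced by p53 and FoxO factors. At 1433711_s_at it stood at 7.58, 7.84 and 8.04 on the delta EGFP+ arrays, 10.87, 11.12 and 10.86 on the WT EGFP+ arrays, 8.34 on the delta EGFP- array and 10.37 on the WT EGFP- array. All delta-labelled arrays were low, whether EGFP+ or EGFP-, and all WT-labelled arrays were high. The difference was -3.13 (SE 0.15) in EGFP+ cells, 8.75-fold lower, and -2.03 in EGFP- cells, 4.07-fold lower. Within a label, EGFP+ differed from EGFP- arrays by -0.52 (SE 0.21) for delta and by 0.58 (SE 0.21) for WT. The other 3 probe sets of Sesn1 gave differences of -3.54 (SE 0.19), -2.68 (SE 0.25) and -2.06 (SE 0.14) in EGFP+ cells and of -2.38, -2.34 and -1.92 in EGFP- cells. No array of a delta label overlapped with a WT-labelled array at any of the 4 probe sets.

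Sesn3, a sestrin known as a FoxO target, varied less. At 1453313_at it stood at 10.12, 10.21 and 10.62 on the delta EGFP+ arrays, 10.94, 10.49 and 11.04 on the WT EGFP+ arrays, 10.61 on the delta EGFP- array and 9.97 on the WT EGFP- array. The EGFP+ groups overlapped, with a difference of -0.51 (SE 0.19). Without WT EGFP+ replicate 2 and delta EGFP+ replicate 3, the 2 arrays that overlap, it was -0.82. The further probe set 1449303_at gave 9.95, 9.93 and 10.23 on the delta EGFP+ and 10.42, 10.63 and 10.35 on the WT EGFP+ arrays, without overlap (difference -0.43, SE 0.13). Its EGFP- arrays ran the other way from those of 1453313_at, at 10.36 for delta and 10.67 for WT.

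**Figure D3:**
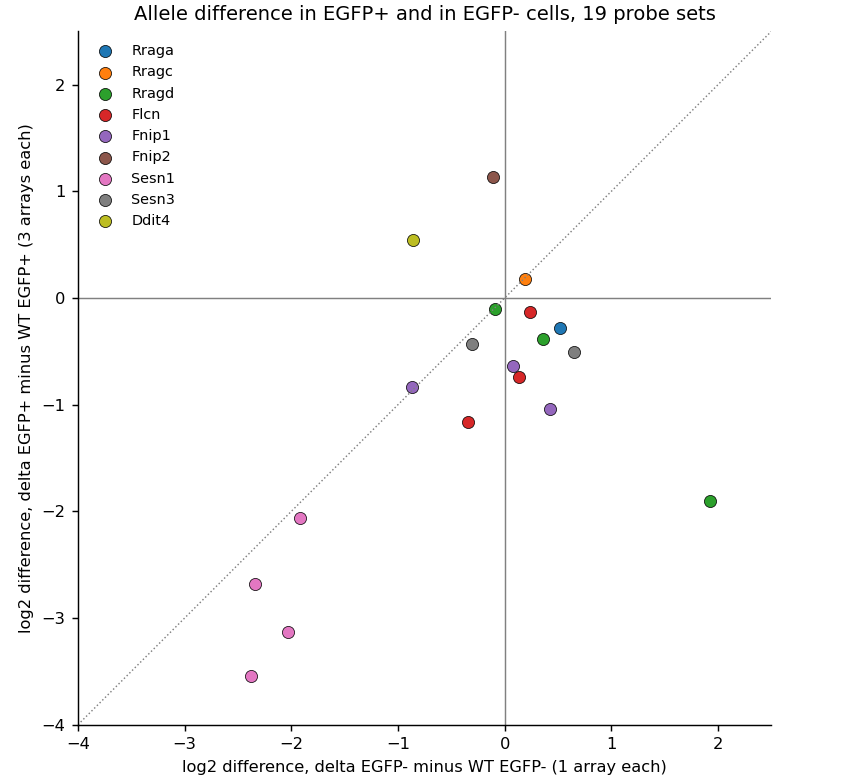
Difference of delta from WT arrays in EGFP- cells (x axis, 1 array each) and in EGFP+ cells (y axis, 3 arrays each), in log2 units, for the 19 probe sets, and a dotted line of equal differences. The 4 Sesn1 probe sets lie low on both axes, from -1.92 to -2.38 and from -2.06 to -3.54, while Rragd at 1434909_at stands at 1.92 and -1.90.

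The allele comparisons in EGFP+ and in EGFP- cells share no array, whereas the EGFP+ against EGFP- comparisons reuse arrays of both. In EGFP- cells Sesn1 was at least 2-fold lower and Rragd at least 2-fold higher on the delta array, while the other 7 genes differed by less; of all genes, 1.04% were at least 2-fold lower and 3.78% at least 2-fold higher there. In EGFP+ cells limma's adjusted p passed 0.05 for 4 members downward (Rragd, Flcn, Fnip1 and Sesn1) and 1 upward (Fnip2). Of all genes, 6.02% passed downward and 10.4% upward, but these values chose the members, and nothing is read from the count. Likewise 5 members were lower and 2 higher without overlap of the EGFP+ arrays, against 14.0% and 20.2% of all genes. Rragc is among the 2 by unrounded values alone, since its nearest arrays both round to 9.70. The median difference of the 9 genes was -0.51, against 0.02 over all genes. Between EGFP+ and EGFP- arrays Rragd passed upward for WT (1.02% of all genes), Fnip2 upward for delta (0.022%), and Rragd downward for the difference between these differences (0.044%). These comparisons too use the values that chose the members, so nothing is read from their counts. The call of Fnip2 and that of Rragd in the last comparison were lost without any 1 of the EGFP+ arrays except WT replicate 2.

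Ddit4, which encodes the mTORC1 inhibitor REDD1, differed more within a group than between the groups. It stood at 10.13, 11.02 and 10.08 on the delta EGFP+ arrays, 8.64, 11.35 and 9.60 on the WT EGFP+ arrays, 10.83 on the delta EGFP- array and 11.69 on the WT EGFP- array. The WT EGFP+ arrays ranged from the lowest value of all to above every delta array, and their SD of 1.37 was larger than that of 99.8% of genes. The SD of the delta EGFP+ arrays, 0.53, was larger than that of 98.7% of genes. The difference between the EGFP+ groups was 0.54 (SE 0.62), and it was 1.29 without WT EGFP+ replicate 2 and -0.07 without WT EGFP+ replicate 1. The WT EGFP- array was the highest, 1.83 (SE 0.88) above the mean of the WT EGFP+ arrays.

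**Figure D4:**
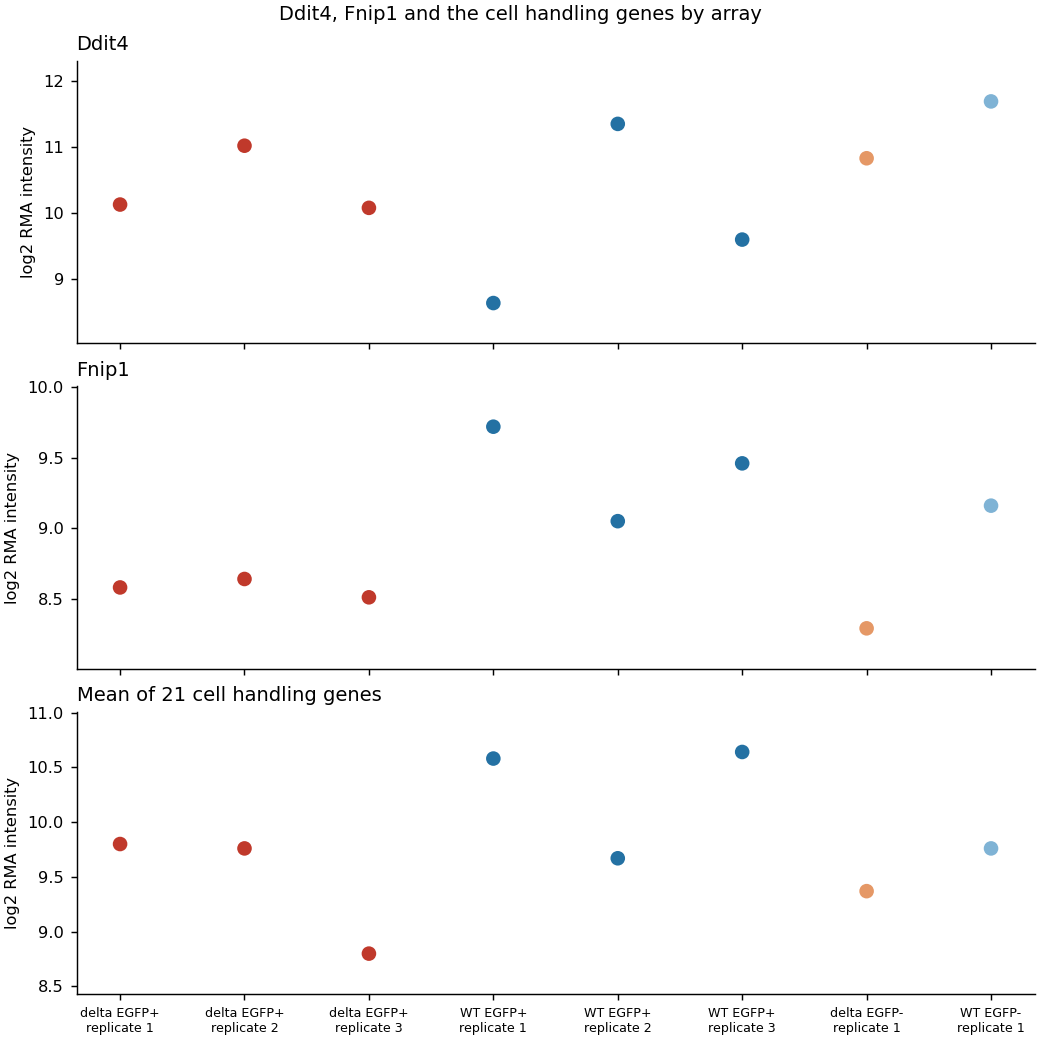
Ddit4, Fnip1 and the mean of 21 immediate-early and heat shock genes (log2 RMA intensity) on each of the 8 arrays. Among the WT EGFP+ arrays, replicate 2 was highest in Ddit4 at 11.35, lowest in Fnip1 at 9.05 and lowest in the list mean at 9.67.

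A list of 21 immediate-early and heat shock genes, which respond to cell handling, varied across the same arrays. Its mean stood at 9.80, 9.76 and 8.80 on the delta EGFP+ arrays, 10.58, 9.67 and 10.64 on the WT EGFP+ arrays, 9.37 on the delta EGFP- array and 9.76 on the WT EGFP- array. Of the 21 genes, 6 were lower and 3 higher on all delta than on all WT EGFP+ arrays, and the summed intensity was 30345 to 46210 against 38291 to 73169. WT EGFP+ replicate 2 had the lowest list mean of its group, the highest Ddit4 and the lowest Fnip1, Flcn (1438167_x_at) and Sesn3 (1453313_at), while its Sesn1 was the highest. The delta EGFP+ arrays did not share this order: replicate 3 had the lowest list mean of all arrays, yet the lowest Ddit4 and the highest Sesn3 (1453313_at) of its group. The part of this list in the values of Ddit4, Fnip1, Flcn and Sesn3 was not tested. Without that array and delta EGFP+ replicate 3 together, the differences were 1.45 for Ddit4, -0.98 for Fnip1, -1.32 for Flcn, -1.79 for Rragd and -3.15 for Sesn1.

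The genes whose profile over the 8 arrays was most like that of a member were sought among 10954 non-member genes above the median level. The measure was the root mean square (RMS) difference between profiles, each centred on its own mean. Closest to Sesn1 were Abca1, a cholesterol exporter (RMS 0.26), and St8sia6, a sialyltransferase gene (0.35). Abca1 stood at 6.05, 6.59 and 6.45 on the delta EGFP+ arrays, 8.95, 9.33 and 9.02 on the WT EGFP+ arrays, 7.21 on the delta EGFP- array and 8.86 on the WT EGFP- array. Like Sesn1 it was low on every delta-labelled array. Closest to Rragd were Nt5e, which encodes the ectonucleotidase CD73 (0.34), and the chemokine receptor gene Ccr6 (0.40). Nt5e stood at 8.75, 8.24 and 8.48 on the delta EGFP+ arrays, 9.80, 10.23 and 9.90 on the WT EGFP+ arrays, 8.56 on the delta EGFP- array and 7.07 on the WT EGFP- array. Closest to Fnip2 were Fhl2 (0.16) and Cchcr1 (0.20), to Flcn Dvl1 (0.12) and Stx1a (0.14), to Fnip1 Jmjd1c (0.10) and Sde2 (0.13), and to Sesn3 Tox (0.12) and Kdm6a (0.14). The nearest genes to Ddit4, Ly75 (0.53) and Dus4l (0.57), were farther from it than the nearest genes of the other members were from theirs. Rraga and Rragc spanned less than 1 log2 unit and were not compared. The smallness of a distance also depends on how little a member varies.

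The other genes of the pathway and of the stress responses tied to it were taken as 11 lists with 116 genes, of which 107 were measured. In delta against WT EGFP+ arrays, 11 of them rose and 11 fell at limma's adjusted p under 0.05 (10.3% each), against 10.4% and 6.02% of all genes; their median difference was -0.02, against 0.02 over all genes. The count of 22 became 37 without WT EGFP+ replicate 2. Values below are mean log2 levels ± SD over 3 arrays of a label, with limma's adjusted p over all probe sets. Whether replicate arrays stand for separate mice is unstated, so a p-value here reflects only array-to-array spread, possibly technical. The lists were chosen with earlier results of these data known. Their counts, medians and p-values are therefore given as a description and not as an independent test.

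Within the lysosomal machinery little passed. None of 6 Rag and Ragulator genes passed (2 at an unadjusted p under 0.05), Lamtor4, a Ragulator subunit, standing at 9.83 ± 0.11 on delta and 9.50 ± 0.13 on WT EGFP+ arrays (adjusted p = 0.13). Of 10 genes of GATOR1, GATOR2 and KICSTOR, the complexes that gate the Rags, 2 rose and 0 fell. Sec13, a GATOR2 subunit also found in COPII coats and nuclear pores, stood at 10.14 ± 0.12 on delta and 9.41 ± 0.09 on WT EGFP+ arrays (difference 0.73, SE 0.11, adjusted p = 0.0058). Kptn, a KICSTOR subunit, stood at 8.44 ± 0.03 on delta and 7.90 ± 0.05 on WT EGFP+ arrays (0.54, SE 0.10, adjusted p = 0.011). The Kptn call was lost with the mean of its probe sets (adjusted p from 0.0041 to 0.091 over the alternatives). Of 15 genes of the vacuolar ATPase, the lysosomal proton pump, 1 rose and 0 fell: Atp6v1a, its catalytic subunit, with 9.73 ± 0.05 on delta against 8.95 ± 0.09 on WT EGFP+ arrays (0.79, SE 0.11, adjusted p = 0.0029). Of 13 lysosomal genes of the TFEB network, 1 rose and 0 fell: Ctsd, the protease cathepsin D, with 11.37 ± 0.07 on delta against 10.68 ± 0.08 on WT EGFP+ arrays (0.70, SE 0.11, adjusted p = 0.0052), although the list's median was -0.31. Tfeb itself differed by 0.06 (SE 0.11, adjusted p = 0.81).

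Among the other sensors 2 of 5 genes fell and 0 rose. Castor2, a paralogue of the arginine sensor, stood at 6.87 ± 0.10 on delta and 7.74 ± 0.04 on WT EGFP+ arrays (difference -0.86, SE 0.11, adjusted p = 0.002). Bmt2, which encodes the S-adenosylmethionine sensor SAMTOR, stood at 8.12 ± 0.30 on delta and 8.99 ± 0.25 on WT EGFP+ arrays (-0.87, SE 0.19, adjusted p = 0.021). Sesn2, the leucine-sensing sestrin, did not pass, at 6.99 ± 0.25 on delta and 7.37 ± 0.21 on WT EGFP+ arrays (-0.38, SE 0.17, adjusted p = 0.21). Its further probe set differed by -0.56 (adjusted p = 0.076), and with the mean of both Sesn2 passed downward (-0.47, adjusted p 0.036 to 0.49 over the alternatives). Of 10 genes of mTORC1 with its Rheb and TSC switch, 1 rose and 2 fell, all 3 belonging to the switch. Tbc1d7, the third subunit of the TSC complex, rose to 7.83 ± 0.12 on delta, against 6.05 ± 0.18 on WT EGFP+ arrays (1.79, SE 0.13, adjusted p = 0.00025). A further Tbc1d7 probe set, with a mean level of 5.76, differed by -0.06. Tsc1, the scaffold subunit, fell to 7.83 ± 0.14 on delta, against 8.45 ± 0.16 on WT EGFP+ arrays (-0.62, SE 0.13, adjusted p = 0.019), and Rhebl1, a relative of the mTORC1 activator Rheb, to 7.83 ± 0.10 on delta, against 8.29 ± 0.14 on WT EGFP+ arrays (-0.46, SE 0.12, adjusted p = 0.046).

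Among 7 mTORC1 substrates 1 rose, Eif4ebp1, the translation repressor 4E-BP1, with 8.66 ± 0.18 on delta and 8.04 ± 0.10 on WT EGFP+ arrays (difference 0.62, SE 0.13, adjusted p = 0.018). Its other probe sets differed by 0.14 (limma's adjusted p = 0.51) and 0.80 (adjusted p = 0.1). Among 10 genes of AMPK and LKB1, the energy-sensing kinases, 1 fell, the regulatory subunit gene Prkag2, with 8.76 ± 0.22 on delta and 9.39 ± 0.20 on WT EGFP+ arrays (-0.63, SE 0.16, adjusted p = 0.039). Several of these smaller calls depended on single arrays or on other settings. Bmt2 (adjusted p 0.0024 to 0.08 over the alternatives) was lost without delta replicate 1 or 3 or WT replicate 1 or 3 and with the replicate block, and Eif4ebp1 (0.01 to 0.074) and Prkag2 (0.012 to 0.12) without delta replicate 1 or 2 or WT replicate 1 or 3. Tsc1 (0.016 to 0.074) was lost without delta replicate 1 or 2 or WT replicate 1, with the replicate block and with the mean of its probe sets, the others of which differed by -0.07 and -0.76. Rhebl1 (0.022 to 0.15) was lost without any EGFP+ array except WT replicate 2, without that array and delta replicate 3 together, with median-centred arrays, with a variance trend and with the replicate block. The block takes arrays of 1 title-number series as paired, and gave adjusted p = 0.069 for Bmt2, 0.052 for Tsc1 and 0.074 for Rhebl1 in limma's fit.

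**Figure D5:**
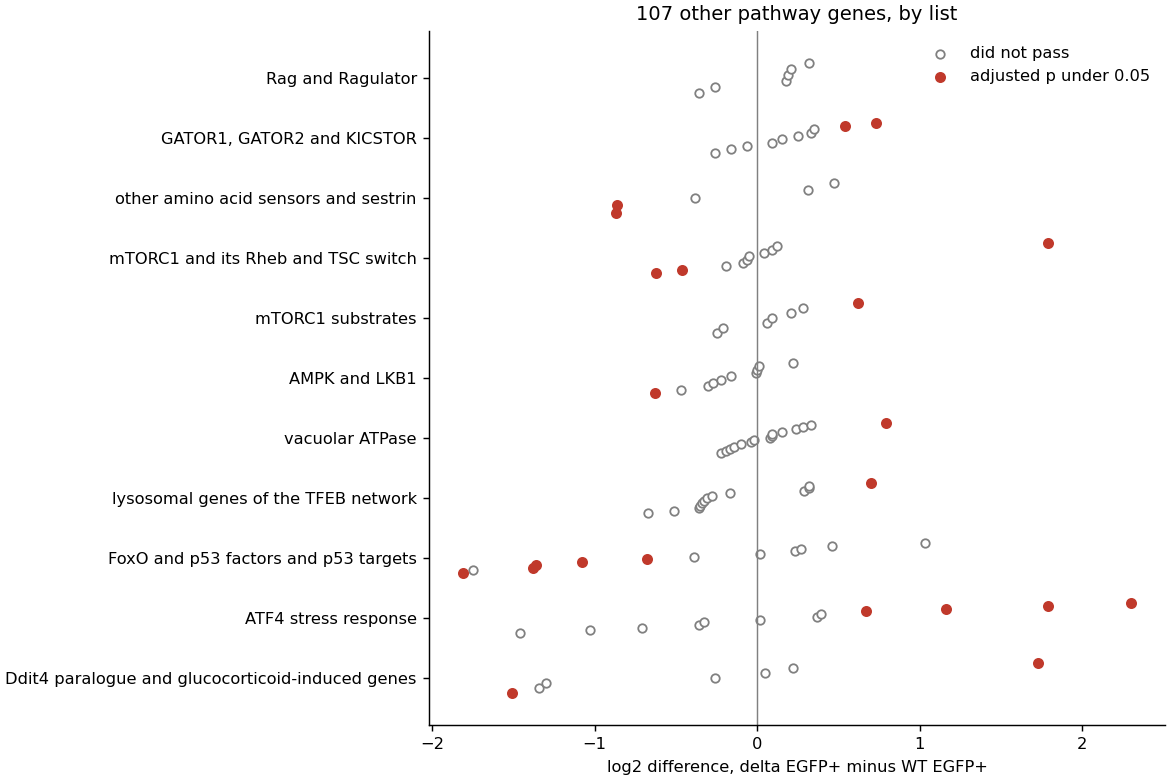
Difference of delta EGFP+ from WT EGFP+ arrays (log2, x axis) for each of 107 measured genes of the 11 lists, filled where limma's adjusted p was under 0.05. The FoxO and p53 list holds 5 genes that fell and none that rose, and the ATF4 list 4 that rose and none that fell.

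Of 12 measured FoxO and p53 factors and p53 targets, 5 fell and 0 rose, with a median of -0.53 against 0.02 over all genes. All 3 FoxO factors, known activators of sestrin genes, were among them: Foxo1 stood at 10.25 ± 0.20 on delta and 12.06 ± 0.10 on WT EGFP+ arrays (difference -1.81, SE 0.13, adjusted p = 0.00025). Foxo3 stood at 8.15 ± 0.15 on delta and 9.51 ± 0.11 on WT EGFP+ arrays (-1.36, SE 0.12, adjusted p = 0.00056), and Foxo4 at 7.50 ± 0.12 on delta and 8.18 ± 0.18 on WT EGFP+ arrays (-0.68, SE 0.13, adjusted p = 0.014). In EGFP- cells, with 1 array per label, Foxo1 stood at 10.84 on the delta and 12.14 on the WT array. Sesn1 had the same order there. Sesn3 had the reverse order at 1453313_at (10.61 on delta, 9.97 on WT) but not at 1449303_at (10.36 on delta, 10.67 on WT). A link between the FoxO factors and the sestrin genes was not tested. The p53 targets Trp53inp1 (-1.38, SE 0.16, adjusted p = 0.0014) and Bbc3, which encodes the cell death protein PUMA (-1.08, SE 0.20, adjusted p = 0.011), also fell. The list's other measured p53 targets did not pass and differed in both directions. Cdkn1a was higher on delta by 1.03, Aen by 0.46, Phlda3 by 0.27, Zmat3 by 0.23 and Ccng1 by 0.02. Mdm2 differed by -0.39 and Gadd45a by -1.75.

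In the ATF4 response to amino acid shortage, 4 of 12 genes rose and 0 fell, with a median of 0.20. All 4 make or load amino acids. Asns, asparagine synthetase, stood at 9.16 ± 0.28 on delta and 6.86 ± 0.52 on WT EGFP+ arrays (difference 2.30, SE 0.26, adjusted p = 0.0014). The serine synthesis genes Psat1 (1.79, SE 0.12, adjusted p = 0.0002) and Phgdh (1.16, SE 0.11, adjusted p = 0.00054) and the alanyl-tRNA synthetase gene Aars (0.67, SE 0.11, adjusted p = 0.0066) rose too. The Phgdh call was lost with the mean of its probe sets (adjusted p from 0.00018 to 0.3 over the alternatives), 1 of which differed by -0.96. In EGFP- cells Asns stood at 8.45 on the delta and 6.08 on the WT array, and Psat1 at 10.55 on the delta and 8.87 on the WT array. Atf4 itself, at 11.32 ± 0.28 on delta and 11.65 ± 0.56 on WT EGFP+ arrays, did not pass (-0.33, SE 0.28, adjusted p = 0.55), and passed downward only without WT replicate 2 (0.048 to 0.88 over the alternatives). The stress factor gene Ddit3 differed by -0.71 and passed downward without that array too (0.012 to 0.23). The list's other genes did not pass and differed in both directions. Ppp1r15a differed by -1.46, Atf3 by -1.03 and Trib3 by -0.36, against 0.39 for Atf5, 0.37 for Chac1 and 0.02 for Nupr1. Of 7 genes that comprise the Ddit4 paralogue and glucocorticoid-induced genes, 1 rose and 1 fell. Fkbp5, a co-chaperone of the glucocorticoid receptor, stood at 10.61 ± 0.27 on delta and 8.88 ± 0.06 on WT EGFP+ arrays (1.73, SE 0.15, adjusted p = 0.00045). Tsc22d3, which encodes GILZ, stood at 9.77 ± 0.61 on delta and 11.28 ± 0.15 on WT EGFP+ arrays (-1.51, SE 0.28, adjusted p = 0.011) and was lost without delta replicate 1 or WT replicate 1 (0.0018 to 0.055 over the alternatives). Klf9 differed by -1.30 (SE 0.51, limma's adjusted p = 0.16) and passed downward without WT replicate 2 (0.0013 to 0.38 over the alternatives). Per1 differed by -1.34, Sgk1 by -0.26, Zbtb16 by 0.22 and Ddit4l by 0.05, and none of these passed.

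Between EGFP+ and EGFP- arrays none of the 107 genes passed limma's test, for WT (11 at an unadjusted p under 0.05), for delta (17) or for the difference between the alleles (12). Over all genes 1.5%, 0.0879% and 0.066% passed in these comparisons. Eif4ebp1 was 1.20 (SE 0.18) higher on the delta EGFP+ than on the delta EGFP- arrays (adjusted p = 0.099), and 0.35 higher on the WT EGFP+ than on the WT EGFP- arrays. Its other probe sets differed by 0.15 and 0.73 for delta and by -0.04 and 0.48 for WT. Klf9, a glucocorticoid-induced gene, differed most for WT, by 2.99 (SE 0.72, adjusted p = 0.16), and passed without WT EGFP+ replicate 2 (0.00068 to 0.34 over the alternatives).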

How the data were processed

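The authors deposited probe set intensity on a linear scale, RMA-normalized, per the submitters' processing notes and the labels. RMA corrects background, quantile-normalizes and summarises probes, and it can understate differences at low intensity. No version of it is named, and probe-level data and detection calls were not used here. After 64 control probe sets were left out, 45037 were tested without a filter. Symbols came from the platform annotation (34945 probe sets with 1 symbol, 932 with several, 9160 with none here), updated where a current gene record existed (34741). A gene was represented by its probe set with the highest mean.

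A mean per group was fitted to log2 intensity of all 8 arrays with limma 3.58.1 in R 4.3.3 (4 residual and 3.72 prior degrees of freedom), with two-sided tests, p adjusted by Benjamini-Hochberg across every probe set and a threshold of 0.05. The single EGFP- arrays were assumed to vary like the EGFP+ groups, and delta was compared with WT EGFP- by values alone. With 3 arrays a side, the smallest p of an exact permutation test is 0.1. In simulated delta against WT EGFP+ arrays of 45037 probe sets, the fit recovered 62% of 100 changes of 1 log2 unit and 94% of 100 of 2 units, with 9 false calls. No other probe set was changed there and the noise was independent between probe sets, whereas the data gave 5734 calls. The rates in the data may therefore differ from these. The number of arrays limits the precision.

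Members and lists were chosen with earlier results of these data known. Genes named from the lists were up to 2 past the threshold in each direction per list and comparison, or the gene with the smallest p where none passed. In the EGFP comparisons only Eif4ebp1 and Klf9 of these are given. Sesn2, Foxo1, Foxo3, Tfeb and Atf4 were named in any case. Foxo4, Bbc3 and Aars were added after their values were seen, to complete the calls of their lists. The p53 targets that did not pass were added after their values were seen, to show the rest of that list. Ppp1r15a, Atf3, Trib3, Atf5, Chac1 and Nupr1 of the ATF4 list were added likewise. So were Per1, Sgk1 and Ddit4l of the list with the Ddit4 paralogue. Phgdh, Ddit3, Klf9 and Zbtb16, named by the rule in an EGFP comparison, were given for the EGFP+ groups after their values were seen. The first 2 digits of the title numbers put 1 delta and 1 WT EGFP+ array in each of 3 series, but deviations from group means correlated at 0.12, 0.05 and -0.1 within series, so the numbers were not taken to pair arrays. Both EGFP- arrays belong to the series of EGFP+ replicate 1. Within a label, EGFP+ against EGFP- comparisons thus set arrays of 3 series against an array of 1 series. A difference between series can therefore enter those comparisons, and its part was not tested. The 16 alternatives covered scaling, the log offset, dim probe sets, the variance model, left-out arrays, the arrays fitted, the replicate block and the mean over a gene's probe sets.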

Additional observations from a re-analysis of the deposited data

Results flagged for a closer look

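Some member probe sets moved in opposite directions by label: every delta EGFP+ array lay below the delta EGFP- array, and every WT EGFP+ array lay above the WT EGFP- array. limma fitted this contrast at every probe set and called Rragd at 1434909_at alone among the 19. Since the same values chose the members, nothing is read from that call and no p is given. Each contrast rests on 1 EGFP- array per label. The share of all probe sets with this pattern was not computed, so the pattern is not read as a trait of these genes. The contrast given is the EGFP+ minus EGFP- difference for delta less that for WT.

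Rragd at 1434909_at had the widest contrast, -3.82, from -0.95 for delta and 2.88 for WT. Its dim probe set 1431164_at gave -0.74 (-0.29 for delta and 0.45 for WT), and Rraga gave -0.80 (-0.18 for delta and 0.62 for WT). For Sesn1 the contrast was -1.10 at 1433711_s_at (-0.52 for delta and 0.58 for WT) and -1.16 at 1454699_at (-0.73 for delta and 0.43 for WT), small beside the difference between the labels. Fnip1 gave -1.46 at 1419924_at (-0.79 for delta and 0.67 for WT) and -0.72 at 1434405_at (-0.10 for delta and 0.62 for WT; delta replicate 2 and the delta EGFP- array both round to 8.51), but 0.03 at 1449668_s_at, which has the highest mean. Flcn gave -0.87 at 1423663_at (-0.52 for delta and 0.35 for WT) and -0.37 at its dim probe set 1456744_x_at (-0.21 for delta and 0.17 for WT). At that dim probe set WT EGFP+ replicate 1 stood at 4.19 and the WT EGFP- array at 4.16.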

How the results depend on the processing

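Of the differences of the 9 members under the alternatives, 650 moved by less than the spread between replicates and 29 by more. Many of the 650 could not move. The variance models, the dim probe set filter and the fit of the EGFP+ arrays alone leave a difference of means unchanged. Leaving out an array of 1 label cannot change a comparison within the other label. The spread was each gene's own, so Ddit4 counted as unmoved although its difference between the EGFP+ groups spanned -0.07 to 1.45. Between the EGFP+ groups only Ddit4 changed sign (-0.07 without WT replicate 1). The mean over a gene's probe sets moved Rragd to -0.79 and Flcn to -0.68 between EGFP+ groups, and log2(value + 16) moved Fnip2 to 0.86. Both of these settings also moved Rragd in comparisons that use the WT EGFP- array. Over the alternatives its WT EGFP+ minus WT EGFP- difference spanned 1.3 to 2.99. Its interaction spanned -3.94 to -1.52, and its delta minus WT EGFP- difference 0.73 to 1.93. Members called between the EGFP+ groups numbered 5, and 4 to 7 without 1 array; in the WT EGFP comparison the count of 1 became 0 with the replicate block, 3 without WT array 2 and delta array 3 together, and 1 to 2 without 1 array. For delta and for the interaction, 1 became 0 with dim probe sets left out, log2(value + 16) or the replicate block, for delta also with a variance trend and for the interaction with the mean of probe sets, and 0 to 1 without 1 array. Between EGFP- arrays 2 members became 1 with the mean of probe sets.

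All probe sets called between the EGFP+ groups numbered 5734, and 3355 (without WT replicate 1) to 7556 (without WT replicate 2) without 1 array. For the WT EGFP comparison 496 became 83 with the replicate block, 1845 without both of these arrays and 259 to 1193 without 1 array. For delta 34 became 17 without dim probe sets, 54 with a variance trend, 1 with the replicate block, 325 without both arrays and 4 to 84 without 1. For the interaction 18 became 3, 42, 0 and 171 under the same settings, 4 with log2(value + 16), 30 with a robust fit and 2 to 85 without 1 array. Pathway genes called between the EGFP+ groups numbered 22, 37 without both arrays and 15 to 37 without 1. For WT 0 became 1 with the mean of probe sets, 9 without both arrays and up to 5 without 1; for delta 0 became 1 without both arrays, and for the interaction 1 with the mean of probe sets. The cause of these changes was not tested. Without detection calls, low values have no measured distance from background.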
